A study of Homo sapiens with 8 samples.

Results

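The levels of 9 histone genes were described in single SUM159 cells that had been passaged with JQ1, palbociclib, paclitaxel or combinations of them. The genes were chosen by name, with earlier results of these data known. They were the replication-dependent genes HIST1H1C, HIST1H2AC, HIST1H2BD, HIST1H2BK, HIST2H2BE and HIST1H4C, and the variant genes H2AFJ, H2AFZ and H2AFX. They are 9 of the 18955 genes in the count table, and all 9 were detected. SUM159 is an established triple-negative breast cancer cell line, and its cells carried a lentiviral ClonTracer barcode library. JQ1 is an inhibitor of the BET bromodomain proteins, palbociclib an inhibitor of the cyclin-dependent kinases CDK4 and CDK6, and paclitaxel a drug that stabilises microtubules.

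Each of the 8 libraries held cells of 1 treatment: untreated barcoded cells (pre-treatment), DMSO, paclitaxel at 0.6 nM, JQ1 at 100 nM (the libraries JQ1-A and JQ1-B), palbociclib at 160 nM, JQ1+paclitaxel and JQ1+palbociclib at those same doses, after at most 18 passages. By the study's methods a treated library pooled equal cell numbers of replicate cultures, so the spread between cultures was not measured. Not every JQ1+palbociclib culture survived, and the labels do not say how many entered that pool. The DMSO, paclitaxel, JQ1-A and JQ1+paclitaxel libraries came from 1 experiment and the palbociclib, JQ1-B and JQ1+palbociclib libraries from another, which had no DMSO library. No treatment other than JQ1 had more than 1 library, so the tests below compare the 4 libraries with JQ1 to the 4 without, and likewise for each other drug, in 1 additive model. The p-values therefore rest on the spread between libraries that also differ in treatment.

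The libraries held 459 to 1024 cells and 10621159 to 24240835 transcript molecules counted by unique molecular identifier (UMI). Of 5725 distinct cell barcodes, 13 occurred in more than 1 library. VIM, which encodes the mesenchymal filament protein vimentin, stood at 3279 to 4502 CPM (UMIs per 1000000 UMIs of the library), the hormone receptor genes ESR1 and PGR at no more than 0.14 CPM, and the leukocyte gene PTPRC at no more than 0.47 CPM.

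Histones package DNA. Most are made in S phase from clustered, intronless genes whose mRNAs end in a conserved stem-loop in place of a poly(A) tail. Variant histones such as H2A.Z and H2A.J are made outside S phase too, from polyadenylated mRNAs. Several replication-dependent genes also make polyadenylated transcripts, which are known to rise when cells leave the cell cycle or differentiate. These libraries were primed on poly(A), a step meant to capture polyadenylated transcripts. The level of a replication-dependent gene here need not be the level of its stem-loop mRNA, and which form was captured was not tested. Histone coding sequences are near-identical between copies, so the assignment of reads among the replication-dependent genes is uncertain.

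The stem-loop is typical of the replication-dependent mRNAs. It was searched for in the annotated transcripts as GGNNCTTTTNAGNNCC on the transcript strand, and the 4 bases of the loop are in capitals below. It was found in 7 of the 9 genes, among them the variant gene H2AFX, and not in transcripts of H2AFJ or H2AFZ.
HIST1H1C: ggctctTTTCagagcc
HIST1H2BD: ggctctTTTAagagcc
HIST1H4C: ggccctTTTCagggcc
H2AFX: ggccctTTTAagggcc
HIST1H2AC and HIST2H2BE shared the letters of HIST1H1C, and HIST1H2BK those of HIST1H2BD. The annotated transcript ended 4 or 5 bases after the stem-loop in HIST1H1C, HIST1H2BK, HIST1H4C and 1 of the 2 HIST1H2BD transcripts. It ran on for 1729 bases in HIST2H2BE, for up to 1024 bases in H2AFX and for up to 1128 bases in HIST1H2AC. These 3 genes thus have annotated transcripts that pass the stem-loop. The stem-loop was found in 1 of the 2 HIST1H2BD transcripts and in 2 of the 3 HIST1H2AC transcripts. Both genes therefore also have annotated transcripts without it. In the GRCh37 annotation HIST1H1C (chr6:26055968-26056698), HIST1H4C (chr6:26104161-26104565), HIST1H2AC (chr6:26124373-26139344), HIST1H2BD (chr6:26158350-26171577) and HIST1H2BK (chr6:27114140-27114634) lie in the large cluster on chromosome 6. HIST2H2BE lies at chr1:149856009-149858232, H2AFJ at chr12:14927339-14930936, H2AFZ at chr4:100869243-100871512 and H2AFX at chr11:118964584-118966175.

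HIST1H2BD and HIST1H2AC, which encode an H2B and an H2A, had the largest fitted changes with JQ1 among the 8 genes with enough counts to be tested. HIST1H2BD was at 3.90 CPM in the pre-treatment library, 1.98 in DMSO, 2.53 in paclitaxel and 3.20 in palbociclib, against 9.33 in JQ1-A, 10.9 in JQ1-B, 8.99 in JQ1+paclitaxel and 8.21 in JQ1+palbociclib. All 4 JQ1 libraries lay above all 4 others. The fitted log2 fold change was 1.86 ± 0.23 (SE, edgeR quasi-likelihood test, adjusted p = 0.00127). HIST1H2AC was at 5.11, 4.05, 3.08 and 4.05 CPM in the pre-treatment, DMSO, paclitaxel and palbociclib libraries and at 6.06, 9.26, 9.20 and 5.94 CPM in JQ1-A, JQ1-B, JQ1+paclitaxel and JQ1+palbociclib. Its groups did not overlap either, although the counting intervals of JQ1+palbociclib (5.01 to 6.99) and pre-treatment (3.99 to 6.43) did. Its log2 fold change was 1.09 ± 0.24 (SE, edgeR adjusted p = 0.0103). Of all 9288 genes tested, 5.45% had all 4 JQ1 libraries above the others.

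HIST1H1C, the linker histone H1.2 gene, was at 37.1 CPM in DMSO, 29.5 in paclitaxel and 35.6 in palbociclib, but at 64.2 in the pre-treatment library, as high as the 61.2 in JQ1-A, 69.3 in JQ1-B and 65.5 in JQ1+paclitaxel. JQ1+palbociclib was at 42.6 CPM. The groups overlapped through the pre-treatment library, and the fitted log2 fold change with JQ1 was 0.72 ± 0.22 (SE, edgeR adjusted p = 0.0316). HIST1H2BK, an H2B gene, followed a similar order, with 43.5 CPM in pre-treatment, 24.9 in DMSO, 31.0 in paclitaxel, 29.7 in palbociclib, 39.4 in JQ1-A, 56.1 in JQ1-B, 32.8 in JQ1+paclitaxel and 34.8 in JQ1+palbociclib. Its fitted change, 0.51 ± 0.19 on the log2 scale, did not pass the threshold (edgeR adjusted p = 0.0678), though it did by DESeq2 (adjusted p = 0.0302). HIST2H2BE, a further H2B gene, gave 261 UMIs in all, 0.993 to 1.88 CPM in the 4 libraries without JQ1 and 1.90 to 3.25 CPM in those with it, too few to enter the test. The counting intervals of DMSO (1.15 to 2.91 CPM) and JQ1+palbociclib (1.39 to 2.53 CPM) overlapped. In the fit without a filter on low counts the HIST2H2BE log2 fold change was 1.14 (edgeR adjusted p = 0.00792). The share of all genes called in that fit is not given here.

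**Figure D1:**
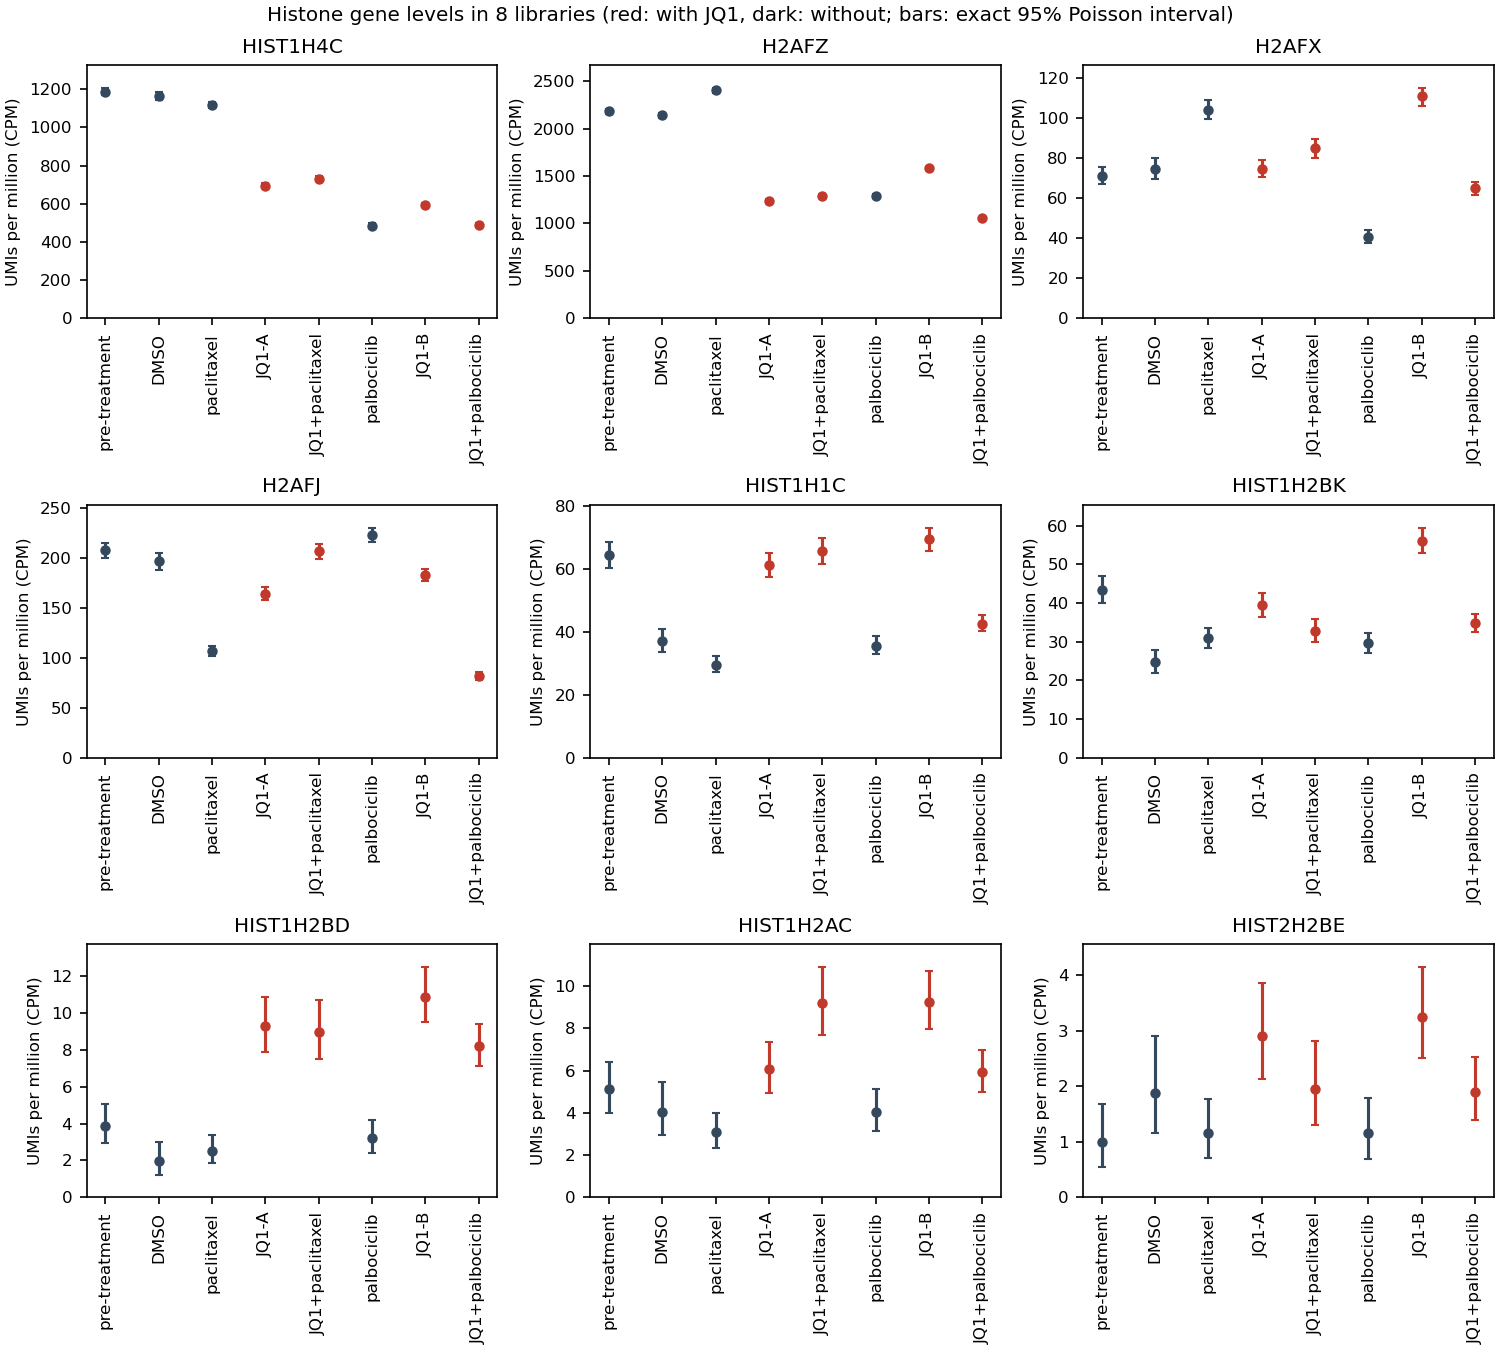
Levels (CPM, vertical axes, each starting at 0) of the 9 histone genes in each of the 8 libraries, with the exact 95% Poisson interval of the count. Libraries with JQ1 are red and those without are dark. The 4 JQ1 libraries stand above the others for HIST1H2BD and HIST1H2AC, the palbociclib library is lowest for H2AFX, and H2AFJ is lowest in JQ1+palbociclib, at 81.6 CPM.

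Several of these H2A and H2B promoters hold the octamer ATTTGCAT, a classic element of H2B genes, and a TATA box. The promoter table (RefSeq, GRCh38.p14) held 8 of the 9 genes, all but HIST1H4C. The 110 bases before the annotated start are shown for 3 genes fitted higher with JQ1 and for H2AFJ, which was not, with ATTTGCAT, TATAAA and CCAAT on either strand in capitals.
HIST1H2BD, chr6:26158011-26158120, plus strand: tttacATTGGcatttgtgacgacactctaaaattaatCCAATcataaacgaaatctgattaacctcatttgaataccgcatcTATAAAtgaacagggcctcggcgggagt
HIST1H2AC, chr6:26124062-26124171, plus strand: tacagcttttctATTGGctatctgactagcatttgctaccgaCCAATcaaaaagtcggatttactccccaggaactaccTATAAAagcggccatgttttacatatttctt
HIST1H2BK, chr6:27146859-27146968, minus strand: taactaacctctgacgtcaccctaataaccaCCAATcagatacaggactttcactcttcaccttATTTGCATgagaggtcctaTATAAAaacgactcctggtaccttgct
H2AFJ, chr12:14774295-14774404, plus strand: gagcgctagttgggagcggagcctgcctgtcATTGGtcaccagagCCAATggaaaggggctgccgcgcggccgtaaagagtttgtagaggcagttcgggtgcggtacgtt
Within the 250 bases before the start, ATTTGCAT occurred in HIST1H2BK and HIST2H2BE at 46 bases before the start and, on the other strand, in HIST1H2AC at 130 bases before it. It occurred in 1.63% of all 35116 promoters in the table, on either strand. TATAAA occurred in 6 of the 8, namely HIST1H2AC, HIST1H2BD, HIST1H2BK, HIST2H2BE, H2AFZ and H2AFX, each with a copy 27 to 31 bases before the start, and in 10.7% of all promoters. CCAAT occurred in all 8 and in 32.0% of all promoters. Of these exact letters H2AFJ and HIST1H1C held CCAAT alone. Variants of TATAAA were not searched for, and HIST1H1C holds tatatata within the 110 bases before its start. HIST1H2BD, which was higher with JQ1, has no exact octamer, and H2AFZ, which was lower, has TATAAA. Any relation of these letters to the response to JQ1 was not tested.

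H2AFX encodes H2A.X, the variant phosphorylated at DNA breaks. It was at 71.3 CPM in pre-treatment, 74.7 in DMSO, 104 in paclitaxel, 40.7 in palbociclib, 74.8 in JQ1-A, 111 in JQ1-B, 84.9 in JQ1+paclitaxel and 65.0 in JQ1+palbociclib, and the groups overlapped widely. Its log2 fold change with JQ1 was 0.46 ± 0.16 (SE, edgeR adjusted p = 0.0478), close to the threshold, and the 3 matched ratios were 1.0, 0.816 and 1.60.

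H2AFZ and HIST1H4C were lower with JQ1. H2AFZ encodes H2A.Z, a variant placed at promoters and enhancers. It was at 2182 CPM in pre-treatment, 2141 in DMSO and 2402 in paclitaxel, against 1288 in palbociclib, 1239 in JQ1-A, 1581 in JQ1-B, 1291 in JQ1+paclitaxel and 1056 in JQ1+palbociclib. The palbociclib library sat among the JQ1 libraries. The log2 fold change was -0.41 ± 0.11 for JQ1 (SE, edgeR adjusted p = 0.0181) and -0.53 ± 0.13 for palbociclib (adjusted p = 0.0914). HIST1H4C, one of the many genes for the core histone H4, was at 1187 CPM in pre-treatment, 1163 in DMSO and 1117 in paclitaxel, against 486 in palbociclib, 695 in JQ1-A, 592 in JQ1-B, 730 in JQ1+paclitaxel and 489 in JQ1+palbociclib. The log2 fold change was -0.39 ± 0.13 for JQ1 (SE, edgeR adjusted p = 0.0477) and -0.78 ± 0.17 for palbociclib (adjusted p = 0.0763).

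H2AFJ, the gene of the variant H2A.J, which has been linked to senescent cells, was called for none of the drugs. It was at 208 CPM in pre-treatment, 197 in DMSO, 107 in paclitaxel, 223 in palbociclib, 164 in JQ1-A, 183 in JQ1-B, 207 in JQ1+paclitaxel and 81.6 in JQ1+palbociclib. The highest level was in palbociclib and the lowest in JQ1+palbociclib, and the counting intervals of pre-treatment, JQ1+paclitaxel, DMSO and JQ1-B met those of their neighbours in this order. The log2 fold change was -0.03 ± 0.34 for JQ1 (SE, edgeR adjusted p = 0.945) and -0.27 ± 0.41 for palbociclib (adjusted p = 0.721). The JQ1 standard error was the largest of the 8 tested histone genes, and the 3 matched pairs disagreed. JQ1-A was 0.836 times DMSO (0.789 to 0.886), JQ1+paclitaxel was 1.93 times paclitaxel (1.83 to 2.05), and JQ1+palbociclib was 0.366 times palbociclib (0.346 to 0.387). These are exact 95% intervals that cover counting error only. The JQ1 value was 0.41 without the JQ1+palbociclib library and 0.44 without the palbociclib library, but -0.45 without the paclitaxel library and -0.45 without JQ1+paclitaxel, so its sign depended on single libraries.

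Of the 8 histone genes tested, 4 were called higher and 2 lower with JQ1. Calls were common in this comparison, with 37.6% of all 9288 tested genes called, 17.8% higher and 19.7% lower. The median log2 fold change was 0.49 over the 8 genes and 0.00 over all genes. Scaling by library totals alone moved the median of all genes to -0.20 and the share of calls that were higher from 47.4% to 22.9%. Under it no histone gene changed direction, but HIST1H1C and H2AFX were no longer called, and 4 of 8 were. HIST1H2BD and HIST1H2AC were called whichever single library was left out. HIST1H1C kept its call without pre-treatment, palbociclib or JQ1+palbociclib but lost it without any of the other 5 libraries (0.49 to 0.94 on the log2 scale over all 8). H2AFX kept it only without paclitaxel or JQ1+paclitaxel (0.32 to 0.62). H2AFZ lost it without pre-treatment, paclitaxel, JQ1-A or JQ1+paclitaxel (-0.48 to -0.34), and HIST1H4C kept it only without palbociclib or JQ1+palbociclib (-0.54 to -0.29). With the pairs matched by experiment and partner drug as a block, HIST1H2BD alone was called (1.97, adjusted p = 0.0310), and HIST1H2AC (1.09, adjusted p = 0.0824), HIST1H1C (0.90, adjusted p = 0.0701) and H2AFZ (-0.47, adjusted p = 0.105) were not. With experiment as a term, HIST1H2BD, HIST1H2AC and H2AFZ were called, and HIST1H1C (0.72, adjusted p = 0.0799), H2AFX (0.32, adjusted p = 0.147) and HIST1H4C (-0.29, adjusted p = 0.150) were not. HIST1H2BK gained a call without palbociclib, and 2 of the 8 were called without JQ1-A.

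With palbociclib, none of the 8 genes was called by edgeR, and 3 had an unadjusted p under 0.05, as did 22.1% of all tested genes, while DESeq2 called 3 (HIST1H4C, H2AFZ and H2AFX). Of all tested genes, 0.280% were called by edgeR and 5.54% by DESeq2. All 8 were fitted lower, with a median log2 fold change of -0.40 against 0.01 over all genes, but without the JQ1+palbociclib library H2AFJ (0.47), HIST1H2BD (0.25) and HIST1H2AC (0.12) were fitted higher. Both palbociclib libraries lay below the other 6 for HIST1H4C and H2AFX, as they did for 5.10% of all genes. With paclitaxel, neither edgeR nor DESeq2 called any of the 8, none had an unadjusted p under 0.05, and fitted changes lay between -0.31 (HIST1H1C and HIST1H2BK) and 0.25 (H2AFX) on the log2 scale. Over all genes edgeR called 0% for paclitaxel.

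**Figure D2:**
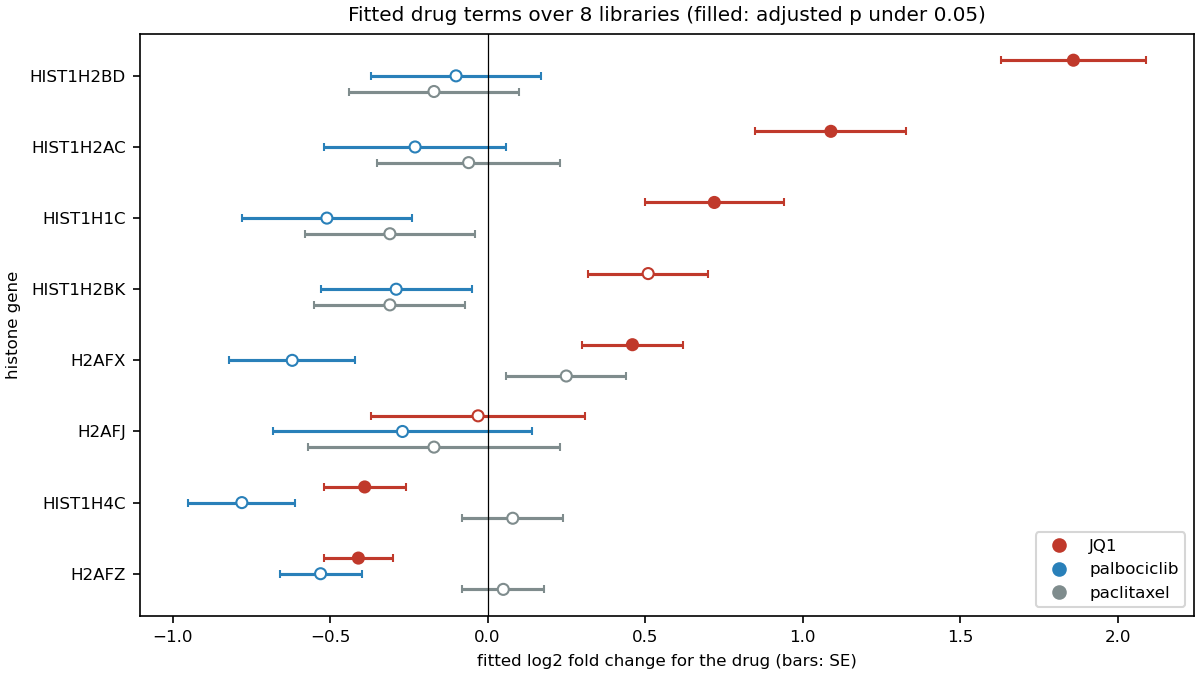
Fitted log2 fold change (horizontal axis) of the 8 tested histone genes (vertical axis) for JQ1, palbociclib and paclitaxel, with the standard error as bars and filled points where the edgeR adjusted p was under 0.05. HIST1H2BD stands farthest to the right for JQ1, at 1.86, and every palbociclib value lies left of 0.

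The other histone genes and the proteins that handle histones gave a background to these genes. Of the 51 other replication-dependent histone genes in the table, 5 had enough counts to be tested. All 5 were called with JQ1, beside 37.6% of all tested genes. HIST2H2AC, HIST1H1E, HIST1H1D and HIST1H2AM fell by 0.54, 0.63, 0.63 and 0.69 on the log2 scale, and HIST1H2BH, an H2B gene, rose by 0.97 (edgeR adjusted p = 0.00609). The H2B gene thus moved as HIST1H2BD did, and the linker histone genes HIST1H1D and HIST1H1E moved opposite to HIST1H1C. Of the 6 tested genes among 8 other replication-independent histone genes, H2AFV, which encodes a second H2A.Z, rose by 0.52 and H3F3A, which encodes H3.3, by 0.34, while H2AFY, which encodes macroH2A, fell by 0.42.

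Of 26 genes for histone chaperones and deposition factors, 7 fell and 1 rose with JQ1, beside the 37.6% of all genes called. ANP32E, which removes H2A.Z from chromatin, fell by 0.94 (edgeR adjusted p = 6.51e-04), and it was the one gene of these lists called for palbociclib, where it fell by 0.73 (adjusted p = 0.0426). VPS72, an H2A.Z-binding subunit of its loading complexes, and DAXX, a chaperone of H3.3, each fell by 0.47, and SSRP1, a subunit of the histone chaperone FACT, by 0.46. Among 15 tested genes of histone mRNA synthesis and processing, CSTF2, a polyadenylation factor, fell by 1.34 and LSM11, of the U7 particle that cuts histone mRNA after the stem-loop, by 0.87, and NPAT, which activates replication-dependent histone genes in S phase, rose by 0.49 (edgeR adjusted p = 0.0360). The median of these 15 was 0.01, so the list had no common direction.

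Over all 9288 tested genes 37.6% were called with JQ1, 17.8% higher and 19.7% lower, which is the background for each list here. Of 11 tested senescence and p53 genes, 4 rose and 2 fell with JQ1. TP53I3 and CDKN1A, which encodes the inhibitor p21, rose by 1.31 and 1.07, and GDF15 fell by 1.64. Among 7 tested matrix genes FN1, which encodes fibronectin, rose by 1.50, COL5A1 by 0.77 and SPARC by 0.56. Among 8 tested cytokine genes only IL18 was called, and it rose by 0.67 (edgeR adjusted p = 0.0297). The cytokine list leaned the other way, with 6 of the 8 fitted lower and a median of -0.48. Of the 4 tested neighbours of H2AFJ on chromosome 12, ARHGDIB fell by 1.12 and WBP11 by 0.47. The genes whose log2(CPM + 1) across the 8 libraries was most like that of H2AFJ, of 4433 compared, were RP11-620J15.3 (Pearson r = 0.943), RPL5 (0.927), OXA1L (0.918), BLOC1S1 (0.913) and ATP5G2 (0.912). Among those most like HIST1H4C were NUBP1 (0.98) and SNAP47 (0.969). With 8 points these values are descriptive.

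The histone genes were next followed across the cell cycle. Cells were thinned to 10000 UMIs each and called G1, S or G2/M from published lists of 44 S-phase and 54 G2/M genes, which hold none of these histone genes. The calls differed between libraries: 31.4% of pre-treatment, 27.4% of DMSO and 32.2% of paclitaxel cells were called S, against 8.9% in palbociclib and 11.4%, 16.8%, 14.4% and 13.9% in JQ1-A, JQ1-B, JQ1+paclitaxel and JQ1+palbociclib. In paclitaxel just 23 cells were called G1. Between 29.8% and 57.8% of the cells of a library lay within 0.05 score units of a boundary between phases, so each phase is a range of scores.

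HIST1H4C was higher in S than in G1 cells of all 8 libraries. It rose from 554 to 1668 CPM in pre-treatment, from 420 to 1430 in DMSO, from 217 to 1464 in JQ1-A and from 231 to 1436 in JQ1+paclitaxel. In palbociclib it went from 209 to 983 CPM, in JQ1-B from 171 to 949, in JQ1+palbociclib from 235 to 827, and in paclitaxel, with few G1 cells, from 1187 to 1461. The mean log2 ratio of S over G1 was 1.94 ± 0.79 (SD over 8 libraries), and the exact two-sided sign-flip permutation test gave p = 0.00781, the smallest it can give, and an adjusted p of 0.0505. No gene passed the adjusted threshold here (0% called), so the share of genes with 1 direction in 8 of 8 libraries is the background: 12.5% of genes were higher and 3.04% lower in S. With all UMIs in place of thinned cells, HIST1H4C, H2AFZ and H2AFX passed, but so did many genes, 1711 higher and 440 lower of all 9288.

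H2AFZ and H2AFX were higher in S than in G1 cells in 8 of 8 libraries too, by 0.59 ± 0.19 and 1.01 ± 0.54 on the log2 scale (SD). H2AFX was higher still in G2/M in 8 of 8 libraries, and H2AFZ in 5 of 8. HIST1H2AC and HIST1H2BD were lower in S than in G1 in 8 of 8 libraries, by -0.68 ± 0.57 and -1.13 ± 0.71. Their counts were small, 0 to 13 UMIs in the S cells of a library. In palbociclib, 0 HIST1H2BD UMIs were found in 59 S cells. H2AFJ had a mean log2 ratio of 0.01 ± 0.08.

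In G2/M against G1, 17.4% of genes were called higher and 3.74% lower by the same exact permutation test. H2AFX and H2AFZ were called higher, each in 8 of 8 libraries, by 1.64 ± 0.62 and 0.72 ± 0.28 on the log2 scale (SD, exact permutation test, adjusted p = 0.0369). H2AFX rose from 24.5 to 129 CPM in JQ1-A, from 46.6 to 180 in JQ1-B and from 24.3 to 89.6 in DMSO. HIST1H2BD was called lower, by -0.67 ± 0.54, and HIST1H4C was higher in 7 of 8 libraries (1.47 ± 0.86, exact permutation test, adjusted p = 0.0555), the paclitaxel library being the exception. The HIST1H2BD counts were small here too, with 1 UMI in the G1 cells of paclitaxel and 2 in the G2/M cells of DMSO and of palbociclib. Its exact permutation p was 0.00781 here and in S, so only the adjustment over all genes set the 2 phases apart. H2AFJ was at 0.03 ± 0.20. With cells scored within their own library H2AFX and H2AFZ were called, beside 1553 genes higher and 323 lower of all 9288. With cells thinned to 5000 UMIs none was called.

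**Figure D3:**
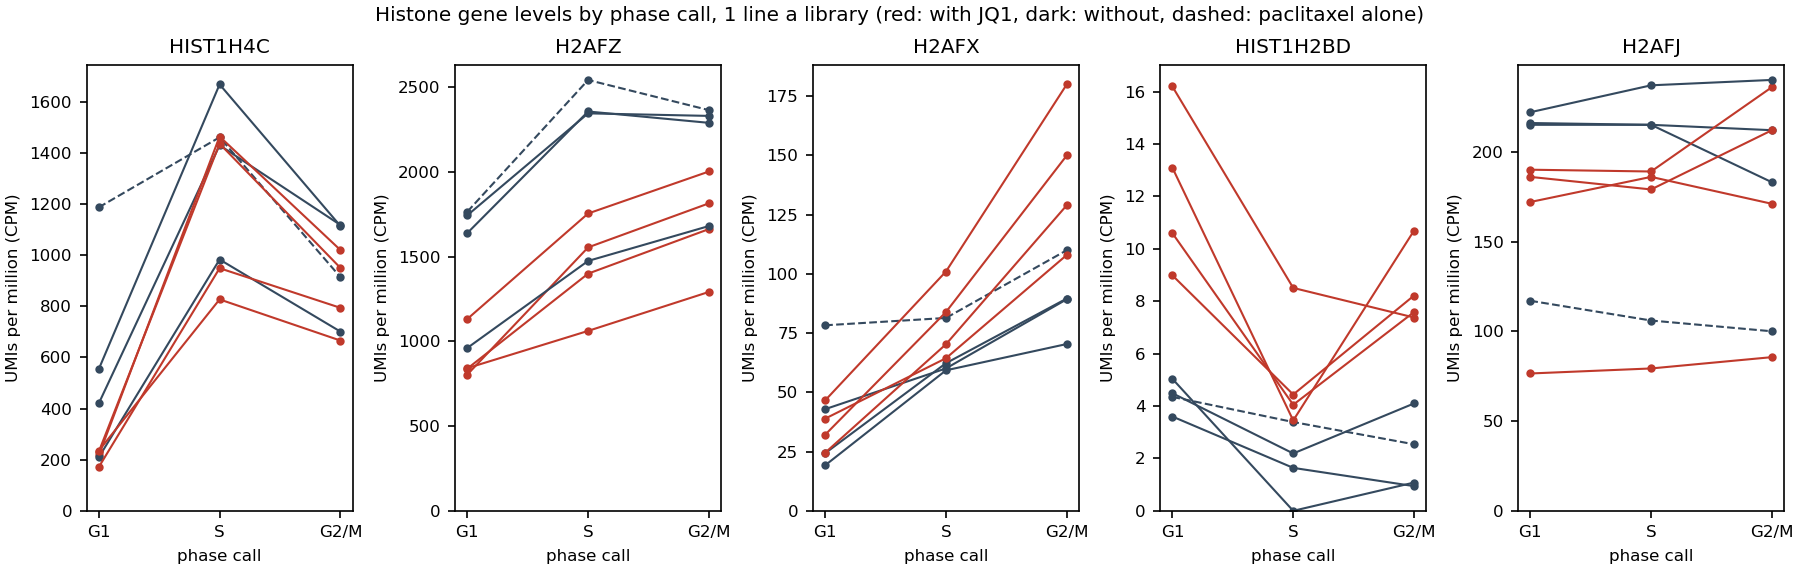
Levels (CPM, vertical axes from 0) of 5 histone genes in cells called G1, S and G2/M, with 1 line for each of the 8 libraries, red with JQ1, dark without it and dashed for paclitaxel alone. HIST1H4C peaks in S, H2AFX climbs to G2/M, HIST1H2BD is lower in S than in G1, and the H2AFJ lines are nearly flat.

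The JQ1 comparison was repeated within each phase. Fitted on G1 cells alone, the HIST1H4C log2 fold change with JQ1 was -1.01 ± 0.26 (SE, edgeR adjusted p = 0.0205). On S cells alone it was -0.08 ± 0.15 (adjusted p = 0.719) and on G2/M cells alone -0.04 ± 0.11 (adjusted p = 0.805). S cells held 1464 CPM in JQ1-A and 1430 in DMSO, and 949 in JQ1-B against 983 in palbociclib. The difference between the phases was not tested. The G1 fit rests on 23 cells in paclitaxel, whose G1 level of 1187 CPM was above that of every other library.

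HIST1H2BD was called higher with JQ1 in each phase, by 1.81 ± 0.27 in G1, 1.23 ± 0.40 in S and 1.77 ± 0.23 in G2/M cells (SE, edgeR adjusted p = 0.00140, 0.0332 and 7.90e-04). H2AFX was called in S (0.42 ± 0.14, adjusted p = 0.0445) and G2/M (0.73 ± 0.12, adjusted p = 0.00230) but not in G1 (0.37 ± 0.22, adjusted p = 0.254). HIST1H1C and HIST1H2AC were called in G1 and G2/M, where their changes were 0.73 to 1.28 on the log2 scale, and not in S, where they were 0.14 and 0.44. These fits by phase were chosen after the data had been seen, apart from the G1 fit.

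Across the cells of 1 library, the scores and the genes share each cell's depth and RNA content, which thinning evens out in part. HIST1H4C correlated with the S score at r = 0.22 (paclitaxel) to 0.54 (JQ1+paclitaxel), and with PCNA, which encodes the replication clamp, at 0.10 to 0.27. H2AFZ correlated with both scores, at 0.17 to 0.49 for S and 0.05 to 0.54 for G2/M. H2AFX followed the G2/M score at 0.16 to 0.50, and TOP2A, a G2/M gene, at 0.08 to 0.41. H2AFJ lay at -0.09 to 0.03 for the S score and -0.07 to 0.10 for G2/M.

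H2AFJ was also set against the matrix genes, which include collagens and fibronectin. Its correlation with the summed matrix genes was above 0 in 8 of 8 libraries, at 0.11 to 0.29. That of H2AFZ was below 0 in all 8, at -0.26 to -0.06. How many of all genes do as H2AFJ does was not computed. With TIMP3 alone, H2AFJ ran from -0.0 in pre-treatment and DMSO to 0.34 in JQ1+palbociclib. Its correlation was above 0 in all 8 libraries with LGALS1 too, which is not on the matrix list (0.14 to 0.34). In the fifth of cells with the most matrix UMIs, H2AFJ stood at 239 CPM against 208 in the other pre-treatment cells, 211 against 197 in DMSO, 265 against 151 in JQ1-A and 151 against 62.0 in JQ1+palbociclib. The ratio was above 1 in every library, from 1.07 in DMSO to 2.43 in JQ1+palbociclib. With CDKN1A the correlation of H2AFJ was -0.07 to 0.16, and with the summed cytokine genes -0.01 to 0.12. With IL6 alone it ran from -0.15 in JQ1+palbociclib to 0.15 in pre-treatment, and with IL18 alone from -0.08 to 0.07.

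JQ1+palbociclib was the library in which H2AFJ differed most between cells. After thinning, 40.6% of its 972 cells held an H2AFJ UMI (exact 95% interval 37.5% to 43.8%), against 59.6% in paclitaxel, 68.8% in JQ1-A, 71.6% in JQ1-B, 79.0% in palbociclib, 79.5% in JQ1+paclitaxel, 79.6% in pre-treatment and 81.1% in DMSO. All cells are of 1 line, so no cell type that lacks the gene gives the share that free RNA would produce. Cells with 5 or more UMIs made up 3.09% of JQ1+palbociclib but 0.820% of paclitaxel, although the mean was lower in JQ1+palbociclib (0.796 UMIs per cell) than in paclitaxel (1.03). The excess squared coefficient of variation, which is what remains after the Poisson part is taken off, was 1.46 in JQ1+palbociclib, above that of 99.4% of 1952 genes compared there, and 0.175 to 0.593 in the other 7 libraries. The genes most correlated with H2AFJ in that library were picked after their values were seen. They were TPT1 (r = 0.38), TIMP3 (0.34), GAPDH, S100A4 and LGALS1 (0.32 each). In the other 7 libraries TPT1 lay at 0.08 to 0.24, TIMP3 at -0.0 to 0.17, GAPDH at -0.06 to 0.25 and S100A4 at 0.10 to 0.21. LGALS1 lay at 0.14 to 0.34 there, with 0.33 in palbociclib and 0.34 in JQ1-B. The most negative were MT-ATP6 (-0.36), MT-ND4 and MT-CO2 (-0.35 each), which lay at -0.12 to 0.08 in the other 7. Mitochondrial UMIs took a median 7.18% of a cell in JQ1+palbociclib and 3.72% to 5.58% elsewhere, and their part in the H2AFJ pattern was not tested.

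**Figure D4:**
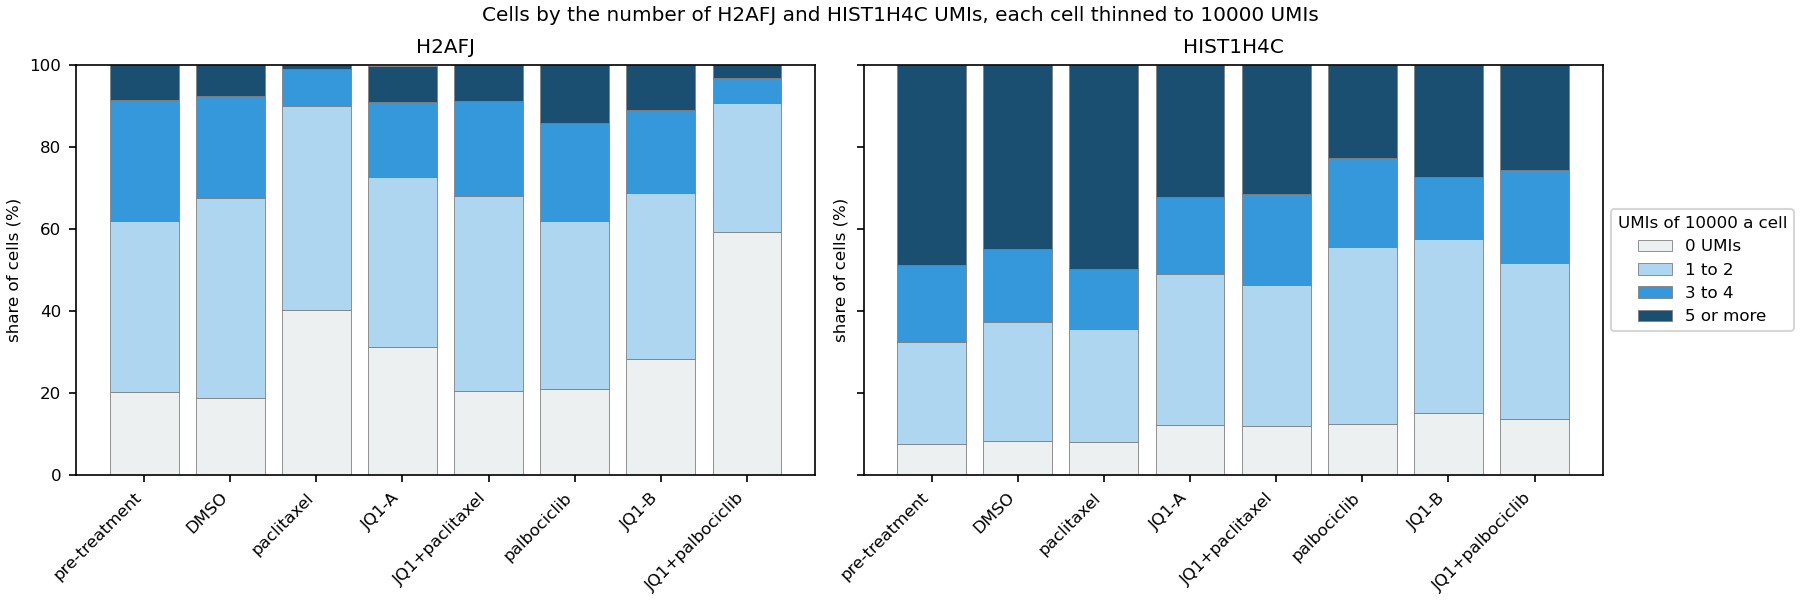
Share of cells (%, vertical axis) with 0, 1 to 2, 3 to 4 and 5 or more UMIs of H2AFJ (left) and HIST1H4C (right) in each library, each cell thinned to 10000 UMIs. Cells with no H2AFJ UMI make up 59.4% of JQ1+palbociclib and 18.9% of DMSO, and cells with 5 or more HIST1H4C UMIs 49.7% of paclitaxel and 22.7% of palbociclib.

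H2AFZ was found in 98.8% to 100% of the thinned cells of each library and HIST1H4C in 84.9% to 92.3%. HIST1H4C was spread over cells far more unevenly than H2AFZ, with an excess squared coefficient of variation of 1.13 to 2.16 against 0.0495 to 0.342. H2AFX was found in 28.9% of palbociclib cells and 40.0% to 61.6% elsewhere. HIST1H2BD was found in 1.80% to 3.43% of cells without JQ1 and 7.10% to 10.3% with it, with no overlap between the groups. The shares of cells separated in that way for 4.29% of all tested genes.

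HIST1H1C was uneven in another way, with a few cells that held very many UMIs. Most cells held 0 to 2 HIST1H1C UMIs, but 22 of the 5487 thinned cells held at least 10, a threshold set after the data had been seen, with 6 cells at exactly 10 and 3 at 9. JQ1-B held 9 of these cells, JQ1+palbociclib 5, JQ1-A 3, JQ1+paclitaxel 3, palbociclib 1 and pre-treatment 1, and DMSO and paclitaxel 0. Together the JQ1 libraries held 20 among 3065 cells and the others 2 among 2422. The highest cell, in pre-treatment, held 70 HIST1H1C UMIs of 10000. The excess squared coefficient of variation was 29.1 in pre-treatment, where that 1 cell held 70 of the 315 HIST1H1C UMIs, 12.1 in JQ1-A and 10.7 in JQ1-B, but 0.646 in paclitaxel, 1.04 in DMSO and 3.52 to 4.54 in the other 3 libraries. The 1% of cells with the most took 30.8% of the HIST1H1C UMIs in pre-treatment and 11.4% in DMSO.

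The HIST1H1C-high cells were also high in several, but not all, other genes of the chromosome 6 cluster, none of which the threshold had used. HIST1H2BK averaged 6.68 UMIs in them against 0.353 in the other 5465 cells, and 21 of the 22 held at least 1. HIST1H2AC averaged 1.18 against 0.0575 and HIST1H2BD 0.955 against 0.0640. The same held for HIST1H2AE (0.636 against 0.0221), HIST1H2BJ (0.727 against 0.0265) and HIST1H2BC (0.364 against 0.0238). The linker histone genes HIST1H1D (0.0455 against 0.118) and HIST1H1E (0.0455 against 0.107) were not higher, with 1 UMI each in the 22 cells. No UMI of HIST1H1A, HIST1H2AH or HIST1H2AM was found in the 22 cells, and these genes were rare in the other cells too. HIST1H4C, in the same cluster, averaged 3.86 against 7.15, or against 5.75 when the other cells were weighted by the libraries from which the high cells came. So weighted, HIST1H2BK was at 0.404, HIST1H2AC at 0.0736 and HIST1H2BD at 0.0887 in the other cells. H2AFJ at 1.82 against 1.67 and H2AFX at 0.864 against 0.749 were nearly level. Of the 22 cells, 13 were called G1, 3 S and 6 G2/M, whereas 41.2% of the other cells were called G1, 18.9% S and 39.8% G2/M. Their median depth before thinning was 17709 UMIs against 22203 in the rest. With so few cells, spread over 6 libraries, these values are a description.

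**Figure D5:**
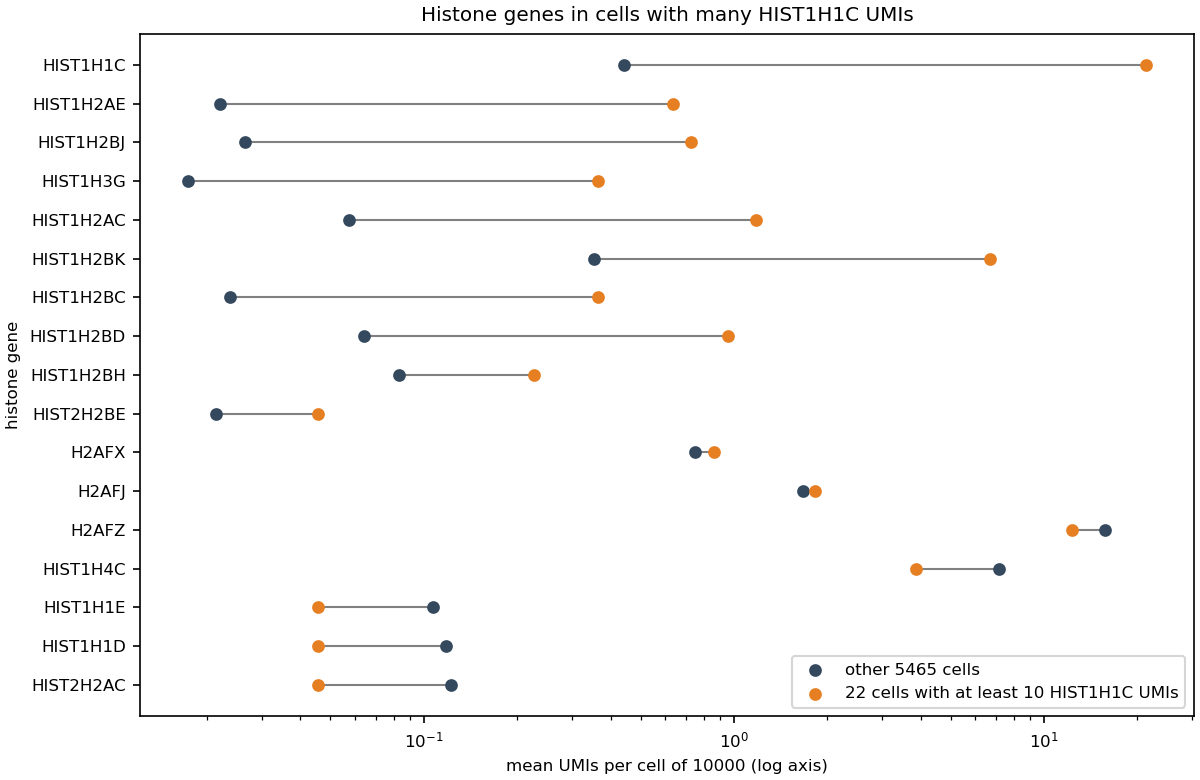
Mean UMIs per cell of 10000 (horizontal log axis) of histone genes in the 22 cells with at least 10 HIST1H1C UMIs (orange) and in the other 5465 cells (dark), ordered by the ratio of the means. HIST1H1C was used to choose the cells. HIST1H2BK lies at 6.68 against 0.353, and HIST1H4C at 3.86 against 7.15. The libraries are pooled, and 20 of the 22 cells came from JQ1 libraries.

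Across all cells of a library HIST1H1C correlated with HIST1H2BK at r = 0.03 (DMSO) to 0.44 (JQ1-B), and HIST1H2AC with HIST1H2BK at 0.10 to 0.35. Without the HIST1H1C-high cells the log2 fold change with JQ1 was 0.62 for HIST1H1C, 1.0 for HIST1H2AC, 1.84 for HIST1H2BD and 0.43 for HIST1H2BK, and 6 of the 8 genes were called, with H2AFX close to the threshold (edgeR adjusted p = 0.0485).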

How the data were processed

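Single cells of 8 pooled SUM159 libraries were captured with a poly(A)-primed 3′ droplet kit. The authors aligned the reads to hg19, counted UMIs with Cell Ranger and deposited 1 table of raw UMI counts per gene and cell, with a table that names each cell's library, and no value columns were left unassigned. Counts were summed per library (5738 cells) and tested with edgeR 4.0.16 in R 4.3.3, with a quasi-likelihood test, TMM scaling and additive terms for JQ1, palbociclib and paclitaxel, which leaves 4 residual degrees of freedom. Genes with at least 5 CPM in at least 2 libraries were tested, and p-values were adjusted by Benjamini-Hochberg over all 9288, with a threshold of 0.05. CPM are UMIs per 1000000 UMIs of a library.

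For analysis by cell, the study's filter (1% to 15% mitochondrial UMIs, at least 2000 genes) left 5575 cells. Of these, 5487 had 10000 UMIs and were thinned to that number, and 88 were shallower. No doublet caller was run. Phases were scored with scanpy 1.11.5 and the gene lists of Seurat 5.3.0. Phase ratios used log2(CPM + 1). Intervals on counts and shares are exact 95% intervals and cover counting error only.

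On data simulated for 9288 genes with 200 changed by 2 on the log2 scale, the JQ1 test recovered 98.5% and called 3 unchanged genes. The palbociclib and paclitaxel tests each recovered 100% and called 12 unchanged genes. Smaller changes, such as those fitted here, and a larger share of changed genes were not simulated. Alternatives were DESeq2 1.42.0, other scalings, no count filter, leaving out each library, experiment as a term, 3 matched pairs and subsets of cells. The genes and lists were chosen with earlier results of these data known. The set held 10 histone genes, of which 1 is not reported here, nor are 2 other genes that the rule below would name. From each list up to 4 genes called for JQ1 and 2 for palbociclib, with the largest changes, were named, with 5 genes most like H2AFJ and 3 most like HIST1H4C. HIST2H2AC and the genes named beside the HIST1H1C-high cells were chosen after their values were seen. Symbols are those of the files, matched to current symbols by RefSeq synonyms.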

Additional observations from a re-analysis of the deposited data

Results flagged for a closer look

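The level of HIST1H4C in the palbociclib library, 486 CPM, was far from the other 3 libraries without JQ1, which lay between 1117 and 1187 CPM. Of 36 groups of 4 or 6 libraries examined in this way, 1 held such a library, and chance alone gives about 1 in 20. The matched ratios of H2AFJ went in opposite directions, at 1.93 for JQ1+paclitaxel over paclitaxel, 0.836 for JQ1-A over DMSO and 0.366 for JQ1+palbociclib over palbociclib. Those of H2AFX did too, at 1.60 for JQ1+palbociclib over palbociclib and 0.816 for JQ1+paclitaxel over paclitaxel. With 1 library for each treatment these differences were not tested beyond their counting intervals.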

How the results depend on the processing

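With JQ1, 6 of the 8 tested histone genes were called, and leaving out each library gave 2 (without JQ1-A) to 6 (without palbociclib), with 3 called in 5 of the 8 cases. Experiment as a term gave 3, the 3 matched pairs 1 and S cells alone 3, and other settings 4 to 7, or 8 of 9 with no count filter, which lets HIST2H2BE in. HIST1H2BD was called in all 21 alternatives. For palbociclib the count was 0, but 3 by DESeq2, 1 with no count filter, and 0 to 2 when single libraries were left out (2 without paclitaxel, JQ1+paclitaxel or JQ1+palbociclib). The other replication-dependent genes called with JQ1, 5 of 5, became 2 with experiment as a term, 0 with the matched pairs, 2 or 3 in G1 cells scored across or within libraries, 1 in S cells, 1 in G2/M cells and 1 (without JQ1-A) to 5 with single libraries left out. The chaperone and mRNA processing genes, 11 called, became 5, 1, 4 and 6 in the first 4 of these settings and 5 to 18 with single libraries left out (5 without JQ1-A or JQ1-B, 18 without palbociclib). The cause was not tested. Fits on S cells, on G2/M cells and without the HIST1H1C-high cells were chosen after seeing the data.

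H2AFJ changed sign with JQ1 in G2/M cells (0.05) and ranged from -0.45 to 0.44 as single libraries were left out. For palbociclib, leaving out single libraries gave -1.35 to 0.47 for H2AFJ, -0.55 to 0.12 for HIST1H2AC and -0.37 to 0.25 for HIST1H2BD. For paclitaxel, where nothing was called, signs changed for HIST1H2AC with experiment as a term (0.06), no cells above the 95th UMI percentile (0.11), G1 cells (0.18 scored across and 0.03 within libraries) and G2/M cells (0.02). They also changed for HIST1H2BD in G1 cells scored within libraries (0.13), HIST1H4C with experiment as a term (-0.02) and in G2/M cells (-0.07), and H2AFZ in G1 cells (-0.10). Leaving out single libraries gave, for paclitaxel, -1.16 to 0.52 for H2AFJ, -0.82 to 0.11 for HIST1H1C, -0.64 to 0.37 for HIST1H2AC, -0.02 to 0.14 for HIST1H4C, -0.10 to 0.19 for H2AFZ and -0.10 to 0.55 for H2AFX.

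In S against G1, 0 genes were called in the main setting and 3 of the 8 with all UMIs, where 2151 of all 9288 genes were called. In G2/M against G1, 3 were called, 2 with cells scored within libraries (beside 1876 of all 9288 genes), 0 at 5000 UMIs, and 0 with any library left out, where fewer sign flips are possible. Median correlations with the phase scores moved by less than their spread over libraries without thinning. The share of cells with an H2AFJ UMI at 5000 UMIs and at all UMIs was 27.9% and 58.5% in JQ1+palbociclib, 39.9% and 81.6% in paclitaxel and 60.2% and 94.5% in DMSO, in the same order.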
